A study of Mus musculus with 2 samples.

Results

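The collagen genes of mouse liver were compared between a Pgrmc1 knockout (KO) and a wild type (WT) RNA-seq library. Members were all gene symbols of the form Col, number, a, number, and 44 of the 24054 genes in the expression table were of this form. Col4a3bp, whose symbol carries a suffix and which does not encode a collagen, was left out. A mean level of 0.5 TPM or more (transcript abundance scaled for length and depth) over the 2 libraries was reached by 19 of the 44, as by 12686 of all genes. The last collagen inside this limit was Col12a1, at 0.73 in KO against 0.81 TPM in WT, and the first outside it was Col8a1, at 0.34 in KO against 0.53 TPM in WT.

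Both libraries came from livers of male mice aged 8 to 12 weeks, labelled C57BL/6. The floxed line had been made in C57BL/6N and crossed to B6.Cg-Tg(Sox2-cre)1Amc/J. KO mice were Pgrmc1 -/Y, hemizygous for an X-linked allele whose loxP-flanked exons 1 and 2 had been removed by Sox2-Cre, a Cre recombinase active in the epiblast, so the gene was lost in the whole body and not in hepatocytes alone. Controls were labelled WT, and whether they carried Sox2-Cre is not given in the sources used here. RNA from 5 mice, 2.5 µg each, was pooled into 1 library per genotype, so the spread between mice is unknown, no difference was tested, and every comparison below sets 1 library beside another.

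Collagens are secreted proteins in which chains rich in Gly-X-Y repeats wind into a helix. Fibrillar collagens (types I, III, V and XXVII here) assemble into fibrils, and type IV forms the sheet-like network of basement membranes. Types XV and XVIII sit at basement membranes and carry cleavable ends such as endostatin. The remaining types coat fibrils, form beaded microfilaments or span the plasma membrane. In liver, stellate cells and portal fibroblasts are the main source of fibrillar collagen, sinusoidal endothelium and stellate cells express type IV, and hepatocytes express Col18a1. Because whole tissue was sequenced, fewer cells of a type and less RNA per cell cannot be told apart in any value below.

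The groups differed in the sequence feature that defines a collagen. Glycine is encoded by GGN codons, and the longest run of GGN codons placed 1 per Gly-X-Y triplet was counted in the coding sequence of each of the 19 expressed members (GENCODE M21, GRCm38). The run was 217 to 344 triplets long in the 7 fibrillar members, with a median of 338. It was 30 to 66 triplets in the 5 basement membrane members and 32 to 87 in the 7 others, whose medians were 40 and 45. Stretches of 90 coding bases are shown to contrast an unbroken repeat with one that ends, with the GGN codons of the repeat in capitals. The Col3a1 stretch opens the run of 344 triplets (coding bases 490 to 579, exons 5 to 6, chr1:45323762-45325413, plus strand), and the Col4a1 stretch closes a run of 40 triplets (coding bases 442 to 531, exons 8 to 9, chr8:11244507-11245084, minus strand).
Col3a1: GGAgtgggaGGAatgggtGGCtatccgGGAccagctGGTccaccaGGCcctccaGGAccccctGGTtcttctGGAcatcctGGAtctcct
Col4a1: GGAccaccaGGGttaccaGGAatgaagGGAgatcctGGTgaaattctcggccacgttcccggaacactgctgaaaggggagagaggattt
All 10 triplets of the Col3a1 stretch open with GGN, whereas the Col4a1 repeat stops after 5. Col4a1 held 18 runs of at least 10 triplets, so its repeat was interrupted many times, as is known for type IV chains.

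Depth and labels were checked first. The most frequent value above 0 among the authors' means of a library was taken as 1 read. Reads estimated in this way summed to 22086688 in KO and 29710410 in WT. Pgrmc1 itself was at 0.68 in KO against 949 TPM in WT, a log2 difference of -10.25. Albumin (Alb), the defining hepatocyte transcript, was at 47242 in KO against 49729 TPM in WT. Differences are given as log2 of KO over WT after adding 0.1 TPM to both, so a negative value is lower in KO. Brackets hold a 95% Clopper-Pearson interval for the ratio of the authors' means, which covers counting error only and says nothing of the spread between mice.

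Collagen transcripts were dominated by 1 gene in both libraries. Col18a1, the core of a basement membrane proteoglycan and the precursor of endostatin, was at 356 in KO against 345 TPM in WT. It made up 70.6% of the summed collagen TPM in KO and 67.1% in WT. Col14a1, Col3a1 and Col4a1 followed, each at 4.32% to 5.91% of the sum. Over all 44 members the sum was 504 in KO against 514 TPM in WT. Without Col18a1 the 18 other expressed collagens together stood at 145 in KO against 166 TPM in WT, a difference of -12.6% [-0.21 to -0.15 in log2].

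**Figure D1:**
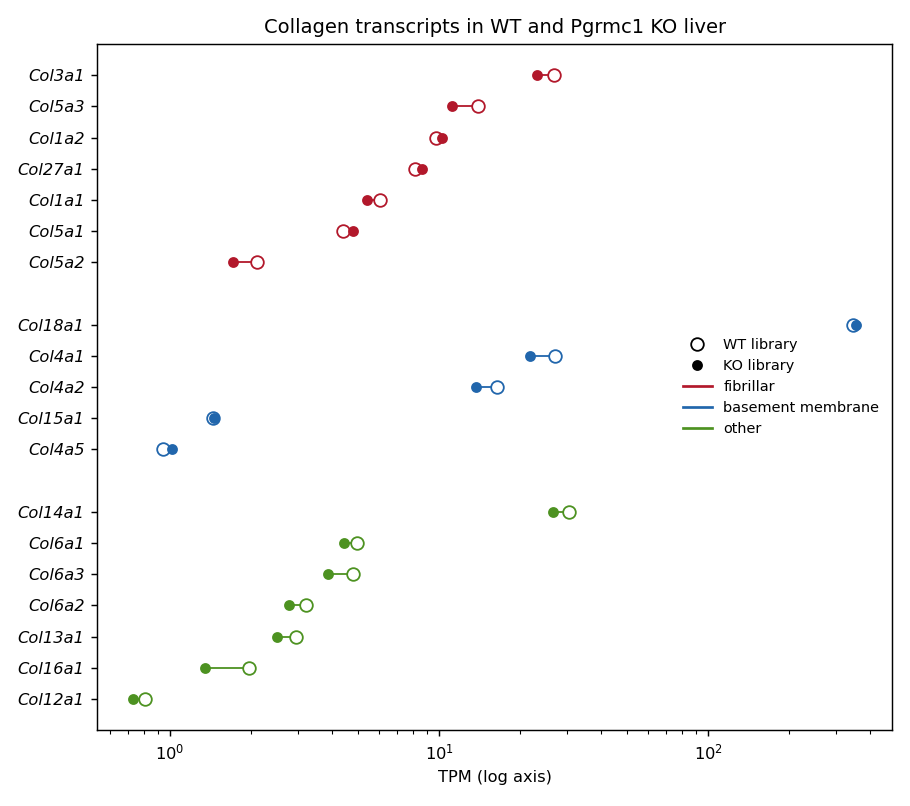
TPM of the 19 expressed collagens in the KO and WT libraries, on a log axis, with a filled circle for KO, an open circle for WT and genes grouped as fibrillar, basement membrane and other. Col18a1 stands apart at 356 and 345 TPM, and every other member is below 31 TPM.

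Most expressed collagens were lower in the KO library. The log2 difference was below 0 for 13 of 19, where 53.3% of all genes that reached the 0.5 TPM mean were below 0. The median was -0.19, against -0.01 for all such genes. A level at least 1.2-fold lower in KO was seen for 6 of 19 (9.3% of all genes), namely Col5a3, Col5a2, Col4a1, Col4a2, Col6a3 and Col16a1. This count depended on the constant added, and was 3 with 1 TPM in place of 0.1. None of the 19 was at least 1.2-fold higher in KO (9.6% of all genes). At larger folds few collagens passed. None was at 1.4 or above (3.28% of all genes). None was at 0.6 of WT or below (0.946%), and 1, Col16a1, was at 1/1.4 or below (2.66%). The counting interval lay wholly below 0 for 8 members (12.6% of all genes with an interval), wholly above 0 for Col18a1 alone (11.1%), and held 0 for the other 10. These shares describe the list, which was not tested against other genes.

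**Figure D2:**
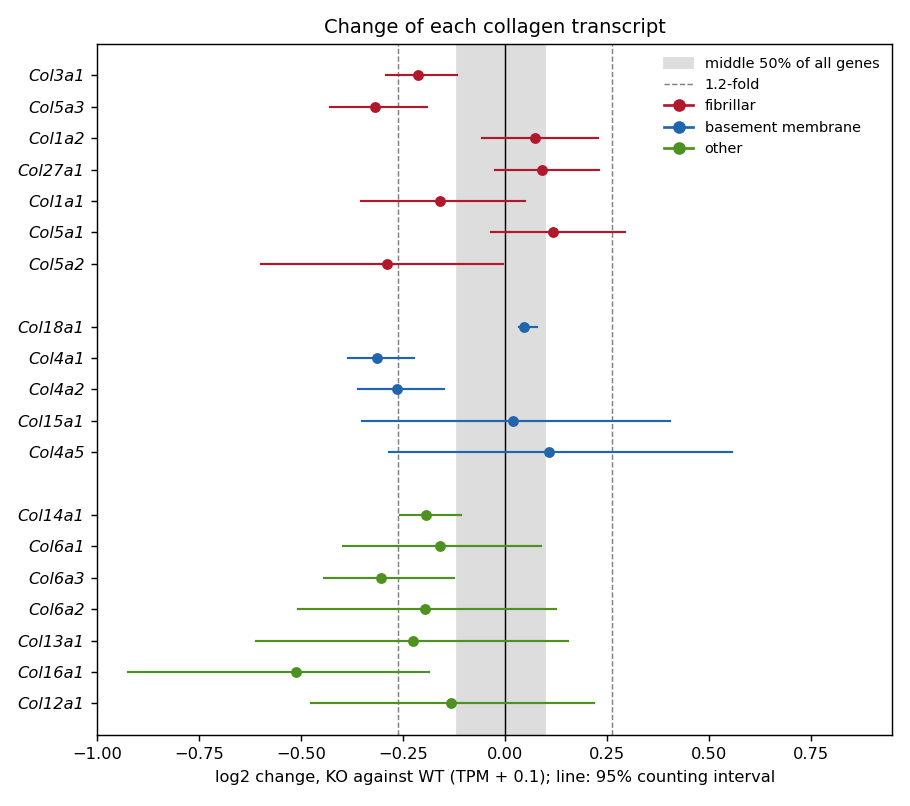
Log2 difference (KO over WT, 0.1 TPM added) of each of the 19 expressed collagens, with 95% counting intervals as horizontal lines, dashed lines at 1.2-fold and a shaded band for the middle 50% of all genes. Points lie between -0.51 (Col16a1) and 0.12 (Col5a1), and 13 of 19 lie below 0.

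The fibrillar group was split, with 4 of 7 members below 0 (53.3% of all genes), 3 above, and a median of -0.16. Over all 11 fibrillar members, without the filter on low levels, the median was 0.047. Col3a1, which forms type III fibrils in the soft matrix of the liver, was the most abundant, at 23.1 in KO against 26.9 TPM in WT. Its log2 difference was -0.21 [-0.29 to -0.12], or -13.8%, and exceeded counting error. Col5a3, a chain of type V collagen, which helps to start fibrils, was at 11.2 in KO against 13.9 TPM in WT, a difference of -19.8%, at -0.32 [-0.43 to -0.19]. Its partner chain Col5a2 was at 1.71 in KO against 2.11 TPM in WT, and its interval only just missed 0, at -0.29 [-0.60 to -0.01]. The other type V chain did not share this direction. Col5a1 was at 4.79 in KO against 4.41 TPM in WT, at 0.12 [-0.03 to 0.29].

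The type I chains, the main substance of scar fibrils, were below Col3a1 in both libraries. Col1a1 was at 5.40 in KO against 6.04 TPM in WT, at -0.16 [-0.35 to 0.05]. Col1a2 was at 10.3 in KO against 9.76 TPM in WT, at 0.07 [-0.06 to 0.23]. Col27a1, a fibrillar collagen best known from cartilage, was at 8.67 in KO against 8.13 TPM in WT, at 0.09 [-0.02 to 0.23]. All 3 intervals held 0, so no difference in type I or type XXVII transcripts was detectable at this depth. The summed fibrillar TPM was 65.1 in KO and 71.2 in WT, a difference of -8.58%.

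Among basement membrane members, 2 of 5 were below 0 (53.3% of all genes) and 3 above. Col4a1 and Col4a2, the chains of the type IV network found in nearly every basement membrane, were both lower in KO. Col4a1 was at 21.8 in KO against 27.1 TPM in WT, at -0.31 [-0.39 to -0.22], and Col4a2 was at 13.7 in KO against 16.5 TPM in WT, at -0.26 [-0.36 to -0.15]. Counting error did not reach 0 for either chain. Col4a5, a chain of specialised basement membranes, was at 1.02 in KO against 0.94 TPM in WT, at 0.11 [-0.28 to 0.56]. With Col4a5 included, type IV summed to 36.5 in KO against 44.5 TPM in WT, a difference of -18.0%. Col18a1 was on the other side of 0, at 0.05 [0.03 to 0.08], a 3.23% higher level read from 27387 reads in KO and 35565 reads in WT. Col15a1, its closest relative, was at 1.46 in KO against 1.44 TPM in WT, at 0.02 [-0.35 to 0.41]. The group sum was 394 in KO against 391 TPM in WT, a log2 ratio of 0.01, and without Col18a1 the same log2 ratio was -0.28.

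Col4a1 and Col4a2 lie head to head on chromosome 8 of GRCm38. Col4a1 runs on the minus strand from 11198423 to 11312889, and Col4a2 on the plus strand from 11312805 to 11449287. These 2 spans overlap. The RefSeq start sites used for the windows, 11312826 for Col4a1 and 11312805 for Col4a2, are 21 bases apart. That of Col4a1 lies inside its span and not at the end of it. The window around the Col4a1 start (300 bases, mostly upstream, from RefSeq on GRCm38, minus strand, chr8:11312777-11313076) is shown because it holds both starts of a pair that was lower in KO. Capitals mark ATTGG, the reverse complement of CCAAT, and CCGCCC, the reverse complement of GGGCGG.
Col4a1 promoter: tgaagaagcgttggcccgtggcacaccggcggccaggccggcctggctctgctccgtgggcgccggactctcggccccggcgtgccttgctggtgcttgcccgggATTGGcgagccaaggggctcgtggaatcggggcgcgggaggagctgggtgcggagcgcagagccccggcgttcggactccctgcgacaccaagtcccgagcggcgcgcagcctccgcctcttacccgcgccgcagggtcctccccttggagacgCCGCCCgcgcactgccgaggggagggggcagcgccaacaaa
Searched on both strands, CCAAT was found in 7 of 17 windows of expressed collagens (15 of the 19 genes had a window) and in 37.4% of 32851 windows of the same length. GGGCGG was found in 11 of the 17 and in 35.7% of all windows. The collagen windows had a median GC content of 61.7%, against 52.7% for all windows. The Col4a1 and Col4a2 windows share 78 bases, in which the CCGCCC shown was counted for both, and the Col3a1 window held neither motif. Matches to such short motifs describe the letters only. Other neighbours went either way. Col3a1 and Col5a2 on chromosome 1, 24624 bases apart, were both lower in KO, as were Col6a1 and Col6a2 on chromosome 10, 85161 bases apart. Col6a1 and Col18a1, 326133 bases apart on chromosome 10, stood on opposite sides of 0, at -0.16 and 0.05. The head-to-head pairs Col4a5 with Col4a6 and Col4a3 with Col4a4 were above 0, at 0.11 and 0.18 and at 0.35 and 0.09, although all but Col4a5 were under 0.5 TPM.

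The 7 expressed members outside these groups were all below 0 (53.3% of all genes), with a median of -0.20. Their summed TPM was 42.2 in KO and 49.1 in WT, and 4 of the 7 intervals held 0. Fibril-associated collagens sit on the surface of fibrils. Of these, Col14a1 was the most abundant, at 26.6 in KO against 30.4 TPM in WT, at -0.19 [-0.26 to -0.11]. Col16a1 showed the lowest ratio of all 19 expressed collagens, at 1.35 in KO against 1.97 TPM in WT, a difference of -30.0%, at -0.51 [-0.92 to -0.19], read from 94 reads in KO and 186 in WT. Col12a1, at 0.73 in KO against 0.81 TPM in WT, had an interval that held 0 [-0.48 to 0.22].

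Type VI collagen forms beaded microfilaments from chains encoded by Col6a1, Col6a2 and Col6a3. Col6a3 was at 3.87 in KO against 4.8 TPM in WT, at -0.30 [-0.44 to -0.12]. Col6a1 was at 4.43 in KO against 4.96 TPM in WT, at -0.16 [-0.40 to 0.09], and Col6a2 was at 2.78 in KO against 3.20 TPM in WT, at -0.20 [-0.51 to 0.13]. All 3 were lower in KO, although counting error was exceeded for Col6a3 alone. Their summed TPM was 11.1 in KO and 13 in WT, a difference of -14.5%. Col13a1, which spans the plasma membrane, was at 2.49 in KO against 2.93 TPM in WT, at -0.23 [-0.61 to 0.16].

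Proportions between chains of the same collagen type differed between the libraries for type V. The ratio of Col5a3 to Col5a1 TPM was 2.33 in KO and 3.16 in WT, a log2 difference of -0.44 [-0.64 to -0.24], and that of Col5a2 to Col5a1 was 0.36 in KO and 0.48 in WT, a log2 difference of -0.42 [-0.77 to -0.09]. Both intervals left out 0. The type V pairs were added after the files were seen, so these ratios restate the differences of the single chains and are no separate support. For Col5a3 to Col5a2 the ratio was 6.52 in KO and 6.60 in WT [-0.33 to 0.31]. The intervals of the 4 pairs from other types held 0. The ratio of Col4a1 to Col4a2 was 1.59 in KO and 1.64 in WT, a log2 difference of -0.05 [-0.18 to 0.08]. For Col6a1 to Col6a2 the ratio was 1.59 in KO and 1.55 in WT [-0.37 to 0.44], and for Col6a3 to Col6a2 it was 1.39 in KO and 1.5 in WT [-0.45 to 0.26]. Col1a1 to Col1a2 was at 0.53 in KO and 0.62 in WT, a log2 difference of -0.24 [-0.49 to 0.01]. In both libraries Col1a2 was thus above Col1a1 per unit length, although the type I molecule carries more of the chain encoded by Col1a1.

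Since the spread of ratios narrows as genes become more abundant, members were set beside all genes of like level. Of the 4438 genes with a mean of 10 to 50 TPM, 59.0% were below 0, the median was -0.03 and the 25th percentile was -0.11. This range held 6 collagens, of which 5 were below that percentile, and Col5a3 and Col4a1 were below the 5th percentile of -0.27. Col1a2 was the sixth, above 0. From 3 to 10 TPM, 3 of 5 collagens lay below the 25th percentile of -0.12, and from 0.5 to 3 TPM, 4 of 7 lay below that of -0.19. Collagen coding sequences were 2217 to 9852 bases long, with a median of 5007. The 2774 genes at least as long as the shortest of these had a median log2 difference of -0.01, with 53.4% below 0. For the 465 genes of at least 5007 bases the median was -0.0075, with 54.0% below 0. The part of length in the collagen differences was not tested.

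**Figure D3:**
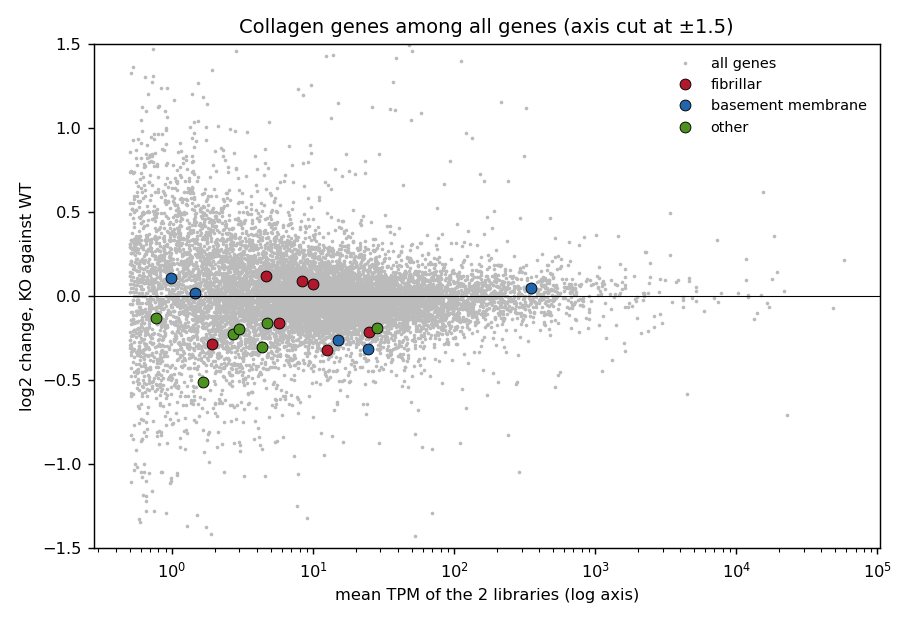
Log2 difference (KO over WT) against mean TPM on a log axis for the 12686 genes at or above a 0.5 TPM mean (grey), with the 19 collagens in colour by group. Collagens between 10 and 50 TPM lie on the lower side of the cloud apart from Col1a2, and Col18a1 is the rightmost collagen, near 0. Genes beyond the limits of the vertical axis are not drawn.

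The 25 collagens under 0.5 TPM carried little signal. Their sum was 3.05 in KO against 2.98 TPM in WT, and 13 were above 0, 8 below and 4 equal. Reads could be estimated for 18 of the 25, since the other 7 had no value in the authors' table of means. These 18 had 218 reads in KO and 280 in WT, a log2 ratio of 0.07 [-0.19 to 0.33]. None of the 18 had an interval that left out 0, or more than 26 reads in KO or 48 in WT. The set included the cartilage collagens Col2a1, at 0.03 in KO against 0.02 TPM in WT, and Col10a1, at 0.02 TPM in both. It also included Col4a3 and Col4a4, the chains that pair with Col4a5 in kidney, at 0.18 and 0.23 TPM in KO and 0.12 and 0.21 TPM in WT, and Col7a1 and Col17a1, which anchor the epidermis, at 0.09 and 0.08 TPM in KO and 0.05 and 0.11 TPM in WT. For the 18 with reads, a difference in single genes was not detectable at this depth, and for the other 7 it could not be judged.

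Of the genes that fold and modify collagen, 15 of 18 expressed members were below 0 (53.3% of all genes), with a median of -0.09. Of these 18 genes, 5 were at least 1.2-fold lower (9.3% of all genes) and 1 at least 1.2-fold higher (9.6%). Serpinh1, the collagen chaperone HSP47, was at 11.5 in KO against 14.5 TPM in WT, at -0.34 [-0.53 to -0.14]. Fkbp14, a prolyl isomerase of the endoplasmic reticulum that acts on collagen, was at 3.56 in KO against 4.90 TPM in WT, at -0.45 [-0.79 to -0.13]. The other 3 at least 1.2-fold lower were the prolyl 4-hydroxylase subunit P4ha2 and the prolyl 3-hydroxylase family members P3h2 and P3h4 (listed as Leprel1 and Leprel4), at -0.30, -0.44 and -0.50, and all 3 intervals held 0. Colgalt2, a collagen galactosyltransferase, was the 1 higher gene, at 0.60 in KO against 0.47 TPM in WT, with an interval that held 0. P4hb and Ppib, which serve many secreted proteins, were at 800 and 381 TPM in KO and 833 and 383 TPM in WT.

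Of processing and crosslinking genes, 4 of 9 expressed members were below 0 (53.3% of all genes), with a median of 0.14. Loxl3 and Loxl4, lysyl oxidases that crosslink collagen and elastin, were higher in KO. Loxl3 was at 1.10 in KO against 0.69 TPM in WT, at 0.60 [0.13 to 1.28], and Loxl4 was at 2.29 in KO against 1.8 TPM in WT, at 0.33 [0.05 to 0.67]. Bmp1, which cuts the carboxyl propeptide off fibrillar procollagen, was at 54.2 in KO against 47.2 TPM in WT, at 0.20 [0.14 to 0.28]. Adamts2 and Adamts14, which cut the amino propeptide, were at -0.27 [-0.51 to 0.01] and -0.33 [-0.90 to 0.14], so both intervals held 0.

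All 6 expressed collagen receptors were below 0 (53.3% of all genes), with a median of -0.13, and all 6 intervals held 0. Ddr1 and Mrc2 are a receptor tyrosine kinase and an endocytic receptor for collagen. Both were more than 1.2-fold lower (9.3% of all genes), at -0.44 and -0.35, on 23 and 40 reads in KO. Of 5 expressed genes of collagen breakdown, Timp3, a matrix-bound metalloproteinase inhibitor, was the clearest, at 10.3 in KO against 14.1 TPM in WT, at -0.45 [-0.59 to -0.31]. Ctsk, a collagen-degrading cathepsin, was at -0.52 and the gelatinase Mmp2 at 0.39, both with intervals that held 0. Mmp14, a membrane-anchored collagenase, was at 16 in KO against 14.3 TPM in WT, at 0.16. Its interval on the authors' normalisation lay just above 0 [0.006 to 0.34], by less than that scale's shift of about 0.01 from TPM.

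Laminins, the other network of basement membranes, went both ways. In the list of laminins and partners, 10 of 14 expressed genes were below 0 (53.3% of all genes), with a median of -0.09. Lamc3, Lamb2, Lama2 and Lamb1 were lower in KO, at -0.71, -0.30, -0.28 and -0.27, and all 4 intervals lay below 0. Lamb3 and Lama3, chains of the epithelial laminin-332, were higher, at 0.53 and 0.37, and both intervals lay above 0. Among other matrix genes, 11 of 16 were below 0 (53.3% of all genes) and 6 were at least 1.2-fold lower (9.3%), from Thbs1 at -0.73 and Lum, a small proteoglycan that binds collagen fibrils, at -0.61 [-0.93 to -0.31] to Efemp2 at -0.30, and none was 1.2-fold higher. Their summed TPM stood the other way, at 2630 in KO and 2493 in WT, since vitronectin (Vtn) and fibronectin (Fn1), the plasma matrix proteins of hepatocytes, were at 0.12 [0.12 to 0.15] and 0.05 [0.04 to 0.08]. In TGF beta signalling, a pathway known to induce collagen genes, 11 of 15 expressed members were below 0 (53.3% of all genes) with a median of -0.09. Ctgf was at 10.4 in KO against 14.8 TPM in WT, at -0.50 [-0.69 to -0.30], and Tgfbr2 at 0.29 and Smad3 at 0.27 were higher, while Tgfb1 was at 4.42 in KO against 4.44 TPM in WT.

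**Figure D4:**
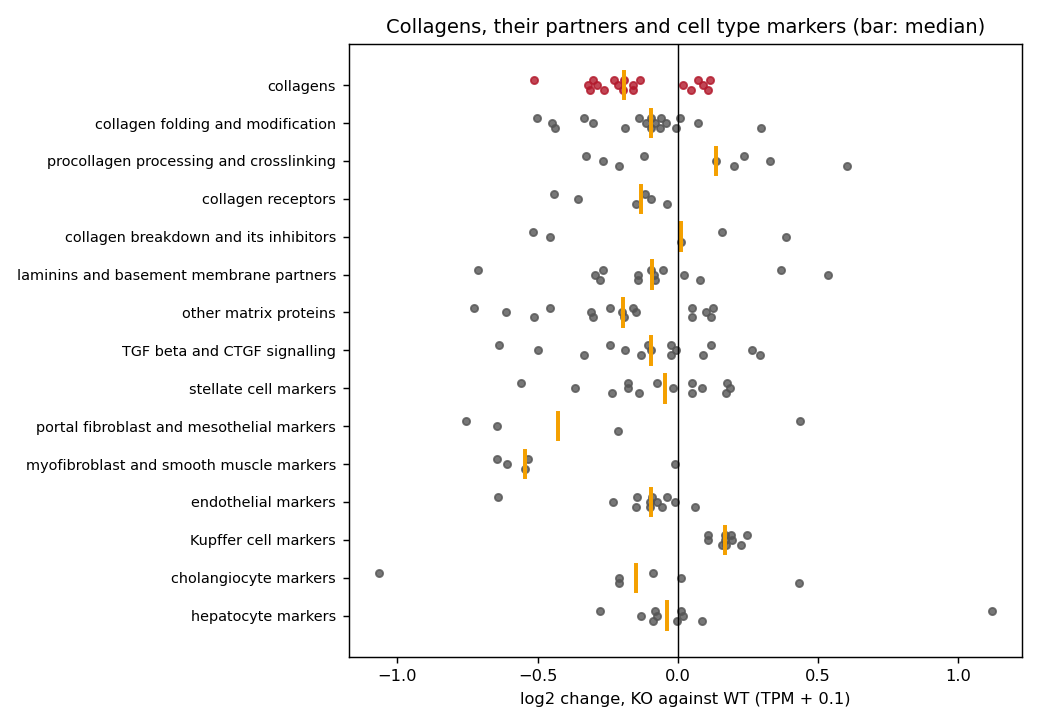
Log2 difference (KO over WT) of each expressed gene of the collagens (red), the collagen pathway lists and the cell type marker lists (grey), with a bar at each list's median. Medians run from -0.55 for smooth muscle markers to 0.17 for Kupffer cell markers, with the collagens at -0.19.

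Markers of the cells that make collagen were read in the same libraries. Of all genes that reached the 0.5 TPM mean, 53.3% were below 0 and 9.3% were at least 1.2-fold lower. Stellate cell markers were split, with 8 of 14 below 0, a median of -0.05 and summed levels of 195 in KO against 209 TPM in WT. Lrat, which makes retinyl esters in stellate cells, was at 12.8 in KO against 11.3 TPM in WT, and Reln was at 26.2 in KO against 29.6 TPM in WT. Rgs5, a marker shared with pericytes, was the lowest of this list at -0.56 [-0.76 to -0.35]. Smooth muscle and myofibroblast markers were lower, with all 5 expressed members below 0, 4 of them at least 1.2-fold, a median of -0.55 and a sum of 13 in KO against 18.6 TPM in WT. Their lowest was Acta2, smooth muscle actin, at 0.91 in KO against 1.48 TPM in WT. Only 4 of 10 portal fibroblast and mesothelial markers were expressed, 3 of them below 0, with Dpt at 2.66 in KO against 4.21 TPM in WT. Thy1, the 1 above 0, was at 0.63 in KO against 0.44 TPM in WT, at 0.43, and its interval held 0 [-0.70 to 1.81].

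Endothelial markers were below 0 in 11 of 12 cases (53.3% of all genes), with a median of -0.09 and sums of 288 in KO against 313 TPM in WT. Lyve1 was the 1 member at least 1.2-fold lower (9.3% of all genes), at 11.5 in KO against 17.9 TPM in WT. Kupffer cell markers were below 0 in 0 of 10 (53.3% of all genes) and above 0 in all 10. Their median was 0.17, with sums of 400 in KO against 353 TPM in WT. None of these 10 was at least 1.2-fold higher (9.6% of all genes). Cholangiocyte markers were below 0 in 4 of 6, with sums of 93.1 in KO against 101 TPM in WT, and hepatocyte markers in 6 of 10, with a median of -0.04. No marker of any list was at 0 in both libraries. The part of cell make-up in the collagen differences was not tested.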

How the data were processed

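Liver RNA pooled from 5 mice per genotype was sequenced as 1 KO and 1 WT library (TruSeq Stranded Total RNA), so n is 1 per genotype. Per the study's methods and the labels, the authors aligned reads to mm10 with RSEM 1.2.09 and Bowtie after CASAVA 1.8.2 and deposited TPM values for 24054 genes (transcript abundance scaled for length and depth) and a second table of 16318 genes with mean normalised values per genotype, a signal made by the authors' EBSeq run. Its posterior probabilities and fold changes are the authors' own comparison and were not used. All columns of per-sample values could be mapped (0 left out). The TPM table gives no counts.

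Here 0.1 TPM was added to both values and the log2 ratio of KO to WT taken for genes whose mean reached 0.5 TPM, and sums were compared as ratios of TPM with nothing added. Reads were estimated as the authors' means divided by the value of 1 read in each library. This gave whole reads within 0.02 for 78.4% of KO and 75.1% of WT values. Clopper-Pearson 95% intervals of the ratio came from these reads. They cover counting error only, and being on the authors' normalisation they sit about 0.01 above the TPM scale in log2 over all genes. The 1.2-fold limit is a ratio of at most 0.833 or at least 1.2. No p-value was computed, since no library was replicated. The code was tested on simulated data. All 19 expressed collagens were named. From pathway and marker lists, the genes named were drawn from those past 1.2-fold, the list extremes and, chosen after their values were seen, a few abundant or well-known members. Members and lists were chosen with earlier results of these data known, and the repeat and motif counts and the type V chain ratios were added after the files were seen. Tables were handled with pandas 2.3.3 and numpy 2.4.6 in Python 3.11.15, intervals came from scipy 1.17.1, and plots were drawn with matplotlib 3.10.9.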

Additional observations from a re-analysis of the deposited data

How the results depend on the processing

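All 76 recomputed differences of single expressed collagens (another constant added, centring on the median of all genes, rescaling without the 50 most abundant genes, and the authors' means) kept their direction. The group values moved with the choice of members. Without the filter on low levels, the fibrillar median was 0.047 (reversed from -0.16), the median of all collagens 0, the number below 0 was 21 of 44, those at least 1.2-fold lower 10 and higher 6, and those at or past 0.6 and 1.4 were 1 and 2, since genes of a few reads then entered. With a minimum mean of 1 TPM, the basement membrane median was -0.12. With type IV alone, that group's median was -0.26 and its sum -0.29, and its sum without Col18a1 was -0.28. With Col15a1 and Col18a1 moved into it, the sum of the other types was 0.016 (reversed from -0.22). With 1 TPM added in place of 0.1, 3 collagens were at least 1.2-fold lower, and with a limit of 1/1.4, 1 (Col16a1) passed in place of none at 0.6. The count at 1.2-fold was 5 with centring and with the authors' means, since Col4a2 lies at that limit. Another added constant could not be run for sums, which take none. No paired analysis was possible because there was only 1 library of either genotype, and leaving out a library was not possible for the same reason.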
